A study of Arabidopsis thaliana with 30 samples.

Results

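The 8 genes described here encode the enzymes that take chlorophyll apart in leaves. They were chosen by locus from what is known of the pathway, not by a rule on their levels, but with earlier results of these data known. They are NYC1 (AT4G13250), NOL (AT5G04900), HCAR (AT1G04620), SGR1 (AT4G22920), SGR2 (AT4G11910), PPH (AT5G13800), PAO (AT3G44880) and RCCR (AT4G37000). All 8 are among the 37513 entries of the count table, and all 8 passed the filter on low counts that left 19761 genes for testing. SGR2 met that filter only through its recovery libraries, and the others also did so in heated leaves.

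Chlorophyll is broken down in the plastid by an ordered set of steps, which is known best from senescing and darkened leaves. NYC1 and its partner NOL reduce chlorophyll b, and HCAR completes the conversion to chlorophyll a. SGR1 takes the magnesium out of chlorophyll a, PPH removes the phytol tail, PAO opens the ring of the resulting pheophorbide a, and RCCR reduces the red product to a colourless one that is exported to the vacuole. SGR2 is a close relative of SGR1 whose role in leaves is less settled. Pheophorbide a and the red product are phototoxic, so that the last enzymes of the pathway also keep illuminated leaves free of them.

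Leaf RNA was sequenced from an Arabidopsis thaliana line that overexpressed AhHAB4-PAI-1, a grain amaranth gene for an RNA-binding protein, from a line that overexpressed Ah2880, a grain amaranth gene for a small protein of unknown function, and from untransformed plants of the Columbia ecotype (WT). Both transgenes were driven by the constitutive 35S CaMV promoter and were homozygous, and each was represented by 1 line (line 13 for AhHAB4-PAI-1 OE and line 12 for Ah2880 OE), so that the effect of a gene and of its line cannot be told apart. Plants of 4 weeks were exposed to a heat shock (HS) of 45 °C under constant light for 1 h (HS-1), 5.5 h (HS-5) or 11 h (HS-11), or for 22 h followed by 1 day (R-1) or 3 days (R-3) of recovery at 22 °C. The 15 treatments had 2 biological replicates each, every one a pool of leaves from several plants, and all 30 libraries came from plants that had been heated, so no value below refers to an unheated plant.

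The libraries held 46825 to 5739590 counts. The study describes its heat exposure as almost lethal for WT plants. Both WT R-3 libraries stood apart, with 46825 and 50677 counts against at least 686550 in the other 28, and the 8 genes had between 0 and 8 counts in each of them. Values of WT R-3 are therefore given once, as counts. The 4 recovery libraries of Ah2880 OE could not be told apart by stage: R-3 and R-1 libraries differed by 1.35 to 1.49 times sampling noise (chi-square per degree of freedom over genes), against 1.12 and 1.39 between replicates of R-1 and of R-3, and no gene passed the test between them, although 1072 of 19761 had an unadjusted p under 0.05 and DESeq2 also called 0. The closest replicate pair was WT HS-5, at 1.04 times sampling noise, and the widest was Ah2880 OE HS-5, at 5.20. AhHAB4-PAI-1 OE R-3 was at 3.59 and WT HS-11 at 3.14. The leaf markers RBCS1A, CA1, PSBO1, GLDP1 and RCA averaged 27.4 to 13080 CPM (counts scaled to a common library size) in the 14 other treatments, whereas the root markers CASP1, EXPA7, COBL9 and PER64 reached at most 33.1 and the flower and seed markers AP1, AG, OLEO1 and CRA1 at most 4.45.

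Levels are in CPM after scaling by TMM factors, with the values of both replicates in place of a mean and SD. Differences are log2 fold changes with their standard error (SE) from edgeR's quasi-likelihood test, and a gene was called at an adjusted p under 0.01 after Benjamini-Hochberg adjustment over all genes. In such bulk samples a change in the share of a cell type and a change of RNA per cell cannot be told apart. The median log2 fold change of all genes lay within 0.1 of 0 in most comparisons, but was 0.30 in AhHAB4-PAI-1 OE over WT at HS-11, -0.27 in Ah2880 OE over WT at R-1, 0.21, 0.29 and 0.32 between the OE lines at HS-11, R-1 and R-3, -0.32 in WT and -0.25 in Ah2880 OE for HS-11 over HS-5, and 0.32 in WT and -0.14 in Ah2880 OE for R-1 over HS-11. For steps set against those of WT it was 0.40 at HS-11 and -0.29 at R-1 in AhHAB4-PAI-1 OE and -0.37 at R-1 in Ah2880 OE. With the WT R-3 libraries it was 1.51 in AhHAB4-PAI-1 OE over WT and 1.03 in Ah2880 OE over WT. For R-3 over R-1 in WT it was -1.39. Values relative to that median are given where this shift made up much of the difference.

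Set side by side per kb of exon, the genes for the last steps of the pathway had the highest median levels. The median over 14 treatments was 84.5 CPM per kb for PAO and 73.3 for RCCR, followed by 49.9 for NYC1, 44.8 for PPH and 24.4 for SGR1. NOL, HCAR and SGR2 were low, with medians of 8.13, 2.47 and 2.22 CPM per kb. The ranges of PAO (32.1 to 135.3 CPM per kb) and RCCR (22.0 to 88.1) overlapped, as did those of NYC1 (34.6 to 80.7) and PPH (30.9 to 71.9), and the same held for HCAR (0.686 to 6.27) and SGR2 (0 to 23.9), so the order within each of these pairs depended on the treatment. The order between pairs varied as well. At HS-11 PAO (32.1 CPM per kb) lay below NYC1 (42.9) and PPH (51.3) in Ah2880 OE. In WT at HS-11 both PAO (50.9) and RCCR (65.0) lay below PPH (71.9). At R-1 RCCR lay below NYC1 in WT (47.8 against 51.8), and below NYC1 and PPH in Ah2880 OE (31.6 against 51.4 and 42.3). At R-3 RCCR (22.0) lay below PPH (50.3), NYC1 (48.5), SGR1 (26.9) and SGR2 (23.9) in Ah2880 OE.

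**Figure D1:**
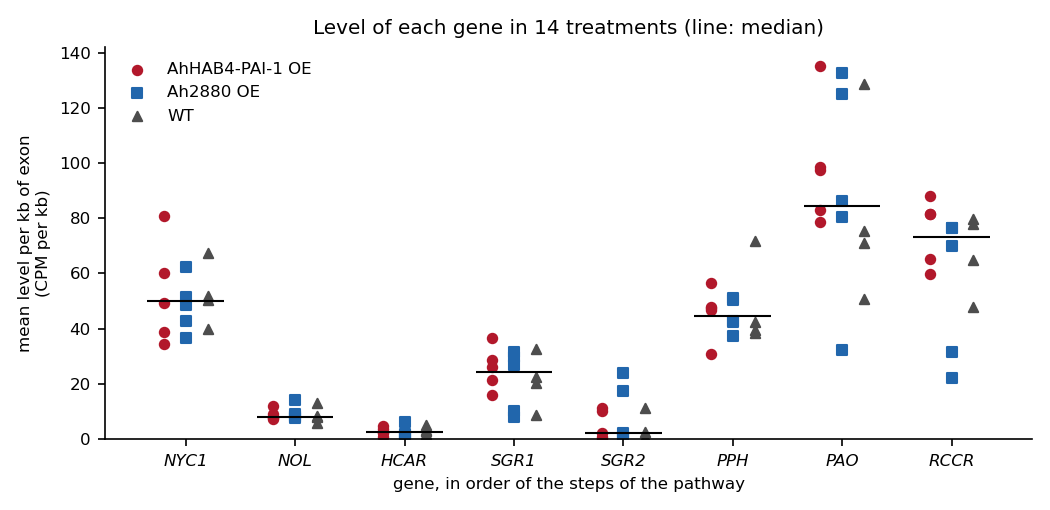
Mean level of each gene in CPM per kb of exon (vertical axis) for the 5 treatments of AhHAB4-PAI-1 OE (circles), the 5 of Ah2880 OE (squares) and 4 of WT (triangles), with the median over the 14 treatments as a horizontal line. PAO and RCCR had the highest medians (84.5 and 73.3 CPM per kb), and SGR2 the lowest (2.22).

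In the TAIR10.1 annotation SGR1 (chromosome 4, 12016420 to 12018643, minus strand), SGR2 (chromosome 4, 7156150 to 7158047, plus), NYC1 (chromosome 4, 7684156 to 7687006, minus), RCCR (chromosome 4, 17442612 to 17444295, plus), NOL (chromosome 5, 1434774 to 1437495, plus), PPH (chromosome 5, 4451733 to 4454813, minus), PAO (chromosome 3, 16383595 to 16386344, plus) and HCAR (chromosome 1, 1282163 to 1286619, minus) have between 2 and 19 exons. No stretch of 50 exon bases of any member occurs elsewhere in the genome, SGR1 and SGR2 included. PAO overlaps the gene AT3G44870 by 11 bases and RCCR overlaps AT4G37010 by 167 bases on the same strand, and reads in those stretches could belong to either gene.

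The promoters were searched for motifs of light, abscisic acid and heat signalling. In the stretch from 250 bases before to 50 after the start of each gene in the TAIR10.1 annotation, on both strands, the G-box CACGTG was found in SGR2, NYC1 and NOL and in 7.68% of 27443 promoters, and the overlapping ABRE motif ACGTGGC in SGR2 and NOL and in 4.08%. The first is bound by bZIP and bHLH factors, the other by bZIP factors of abscisic acid signalling. The heat shock element core TTCNNGAA was found in NYC1 (9.16% of promoters) and the other order, GAANNTTC, in none of the 8 (11.6%). The G-box of SGR2 begins 112 bases before the start and that of NOL 21 bases before it. The TTCNNGAA of NYC1 begins 84 bases before the start, and the G-box of NYC1 lies 35 bases after it. These 3 windows are shown as the matches that lie before the start. The windows of 30 bases below are on the strand of the gene, at chr4:7156026-7156055 (SGR2, plus), chr5:1434741-1434770 (NOL, plus) and chr4:7687072-7687101 (NYC1, minus), with the motif in capitals.
SGR2: cgcaattaaagcCACGTGtgaaccttaatc
NOL: cttatatgccgcCACGTGgcatttaactct
NYC1: aaattttggctTTCTAGAAgcaaaactgaa
SGR1, PPH, PAO, RCCR and HCAR held none of the 4 motifs in this stretch.

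NYC1, the membrane-bound chlorophyll b reductase, peaked at HS-5 in every line. In AhHAB4-PAI-1 OE it had 76.8 and 66.4 CPM after 1 h of heat, then 159 and 174, 126 and 124 in the longer treatments, 108 and 95.8 after 1 day of recovery, and 73.0 and 87.6 after 3 days. Ah2880 OE had 77.0 and 74.0, 140 and 119, 88.1 and 89.5, 110 and 102, and 106 and 94.6 CPM in the same order, and WT had 86.2 and 78.9, 134 and 146, 108 and 102, and 108 and 106 CPM up to R-1. The rise between HS-1 and HS-5 was larger than the spread between replicates in all 3 lines, with a log2 fold change of 1.25 (SE 0.16, adjusted p = 6.61e-09) in AhHAB4-PAI-1 OE, 0.77 (SE 0.13, adjusted p = 3.37e-06) in Ah2880 OE and 0.76 (SE 0.12, adjusted p = 1.03e-06) in WT. NYC1 then fell between HS-5 and HS-11 by 0.42 on the log2 scale in AhHAB4-PAI-1 OE (adjusted p = 0.00769), by 0.54 in Ah2880 OE (adjusted p = 0.00083) and by 0.42 in WT (adjusted p = 0.00751). Relative to the median of all genes, the fall in WT was -0.11. In Ah2880 OE the median of all genes for this step was -0.25, which made up much of the fall there. In AhHAB4-PAI-1 OE the fall was -0.02 with library totals alone (adjusted p = 0.913) and missed the threshold with DESeq2, its size factors, no filter and thinning (adjusted p 0.0165 to 0.084), and when thinned it was -0.16 in WT (0.528) and -0.45 in Ah2880 OE (0.0577). The falls were also lost without single libraries: that of AhHAB4-PAI-1 OE was not called without any 1 of its 4 libraries (adjusted p 0.0195 to 0.13), nor was that of WT (0.0105 to 0.0899) or that of WT without the WT R-3 libraries (-0.34, 0.0214), and that of Ah2880 OE was not called without HS-11 replicate 1 (0.0171) or HS-5 replicate 1 (0.0204).

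Neither OE line differed from WT in NYC1 at HS-1, HS-5, HS-11 or R-1 by the test. The nearest were AhHAB4-PAI-1 OE at HS-5 (log2 fold change 0.26, SE 0.13, adjusted p = 0.121) and at HS-11 (0.26, SE 0.14, adjusted p = 0.0979), the second of which was 0.99 and called with library totals alone (adjusted p = 5.03e-09). Between the OE lines, AhHAB4-PAI-1 OE had more NYC1 than Ah2880 OE at HS-11 (126 and 124 CPM, against 88.1 and 89.5; 0.49, SE 0.14, adjusted p = 0.0017, or 0.28 relative to the median of all genes). That call was lost without AhHAB4-PAI-1 OE replicate 1 (adjusted p = 0.0122), Ah2880 OE replicate 1 (0.0259) or Ah2880 OE replicate 2 (0.0141), and with thinning (0.38, 0.10). At R-3 the order was the other way, with 73.0 and 87.6 CPM in AhHAB4-PAI-1 OE against 106 and 94.6 CPM in Ah2880 OE. That difference missed the threshold (-0.32, SE 0.14, adjusted p = 0.0413) but was called under 5 alternatives (-0.60 to -0.73, adjusted p 1.42e-05 to 0.00109), among them no filter and leaving out the WT R-3 libraries.

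NOL, the soluble subunit that works with NYC1, was highest at HS-1 and showed no difference between lines that passed the test. Its level was 13.3 and 20.3 CPM at HS-1 and 8.91 to 13.0 CPM at all later stages in AhHAB4-PAI-1 OE. In Ah2880 OE it was 19.4 and 20.6 CPM at HS-1 and 7.34 to 13.7 CPM later, and in WT 18.6 and 18.5 CPM at HS-1 and 7.34 to 13.0 CPM from HS-5 to R-1. NOL thus moved opposite to NYC1 over the first step. The fall between HS-1 and HS-5 was called in Ah2880 OE (log2 fold change -0.81, SE 0.23, adjusted p = 0.00376) and WT (-0.67, SE 0.21, adjusted p = 0.00576), and had a like estimate in AhHAB4-PAI-1 OE (-0.68, SE 0.34, adjusted p = 0.117). Outside WT R-3 the libraries held only 9 to 81 NOL counts, and neither call is firm: in Ah2880 OE it was lost without any 1 of the 4 libraries (adjusted p 0.0114 to 0.0538), in WT without HS-1 replicate 1, HS-1 replicate 2 or HS-5 replicate 1 (0.0329 to 0.101). With library totals alone as the scale, NOL differed by -0.34 in Ah2880 OE and -0.07 in WT, neither called.

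HCAR, the reductase that yields chlorophyll a, was low throughout and had its highest mean at HS-11 in all lines. From HS-1 to R-3 it had 5.91 and 4.19, 6.26 and 9.30, 10.4 and 10.6, 5.38 and 6.48, and 2.22 and 1.01 CPM in AhHAB4-PAI-1 OE. Ah2880 OE had 1.57 and 3.20, 3.48 and 3.00, 17.0 and 10.9, 5.63 and 2.19, and 3.05 and 0 CPM over the same stages. WT had 4.88 and 3.70, 7.41 and 6.70, 13.0 and 10.3, and 7.34 and 6.08 CPM up to R-1. The swing passed the test in Ah2880 OE alone, up between HS-5 and HS-11 (log2 fold change 2.15, SE 0.40, adjusted p = 8.04e-06) and down between HS-11 and R-1 (-2.00, SE 0.52, adjusted p = 0.000742), but the step up did not differ from that in WT by the test (1.47, SE 0.54, adjusted p = 0.042) and neither did the step down (-1.23, SE 0.67, adjusted p = 0.163). In AhHAB4-PAI-1 OE, HCAR fell between R-1 and R-3 (-1.74, SE 0.43, adjusted p = 0.00142). No HCAR library held more than 62 counts, and the calls were lost without Ah2880 OE HS-11 replicate 1 (up 1.74, adjusted p = 0.0107, and down -1.60, adjusted p = 0.0398), Ah2880 OE R-1 replicate 2 (down -1.35, adjusted p = 0.0773), AhHAB4-PAI-1 OE R-1 replicate 2 (-1.54, adjusted p = 0.132) or AhHAB4-PAI-1 OE R-3 replicate 2 (-1.46, adjusted p = 0.014). At HS-5 both Ah2880 OE libraries lay below both WT libraries in HCAR, at 3.48 and 3.00 CPM against 7.41 and 6.70, a difference that missed the threshold (-1.13, SE 0.37, adjusted p = 0.0165).

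**Figure D2:**
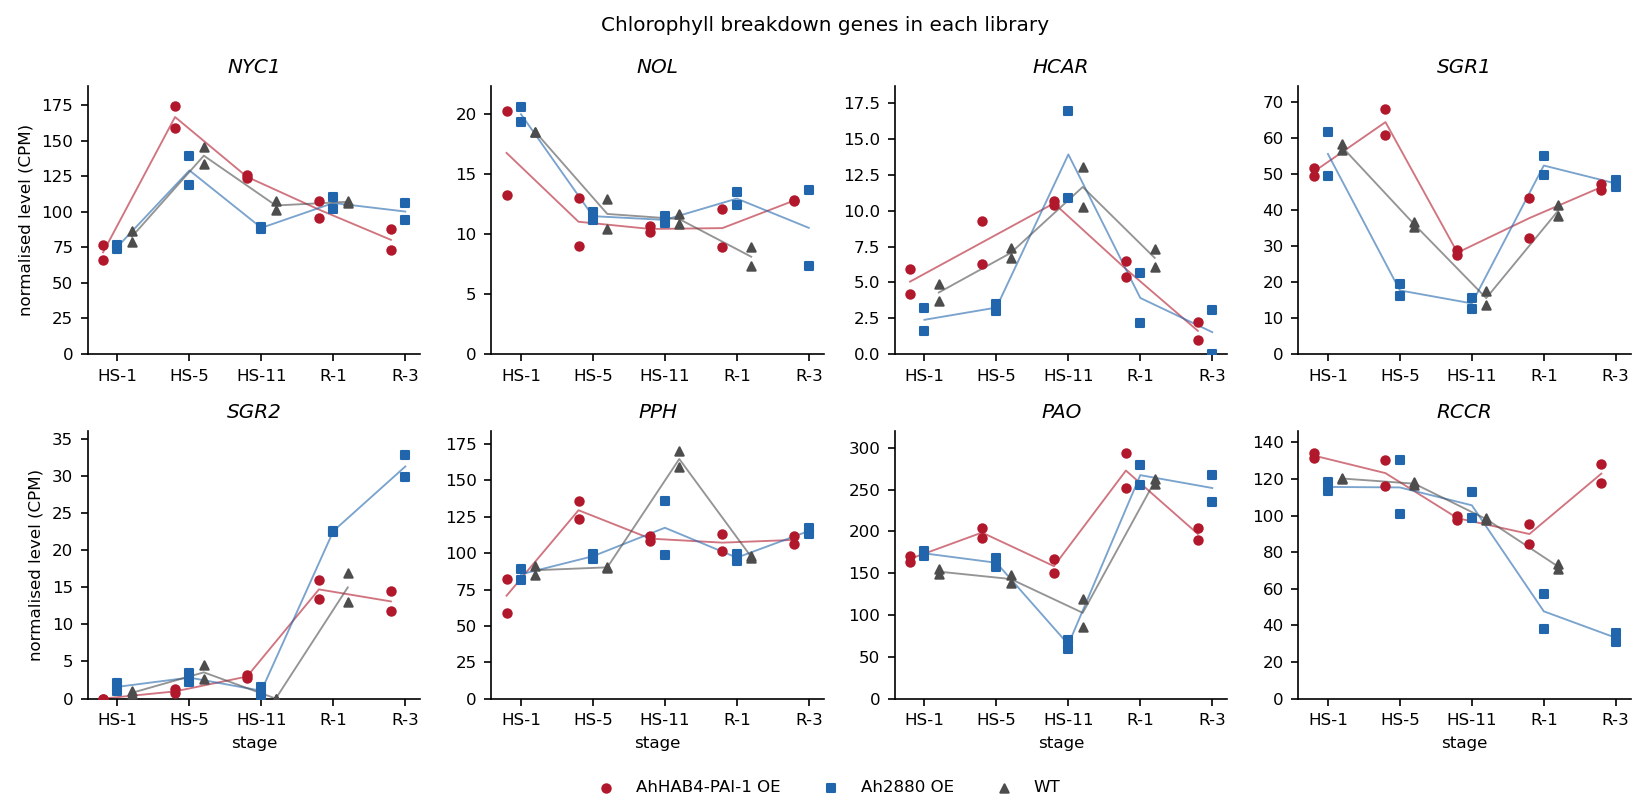
Level of each gene in CPM (vertical axis, from 0, a scale of its own in each panel) in every library of AhHAB4-PAI-1 OE (circles), Ah2880 OE (squares) and WT (triangles) at the 5 stages, with lines through the means of the replicates. WT R-3 is left out for its 46825 and 50677 counts. At HS-5, SGR1 stood at 68.2 and 60.8 CPM in AhHAB4-PAI-1 OE and at 16.0 and 19.4 in Ah2880 OE, on either side of WT.

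SGR1, the magnesium-dechelatase that commits chlorophyll a to breakdown, separated the 3 lines at HS-5. Its level there was 68.2 and 60.8 CPM in AhHAB4-PAI-1 OE, 16.0 and 19.4 CPM in Ah2880 OE, and 35.4 and 36.6 CPM in WT. No library of 1 line overlapped those of another. AhHAB4-PAI-1 OE was 1.79-fold above WT (log2 fold change 0.84, SE 0.15, adjusted p = 2.60e-05), and Ah2880 OE was below WT (-1.01, SE 0.17, adjusted p = 2.46e-06). The OE lines differed from each other as well (1.85, SE 0.18, adjusted p = 9.92e-13). The difference of AhHAB4-PAI-1 OE from WT was not called once all libraries had been thinned to the same depth (0.58, adjusted p = 0.113), while the difference of Ah2880 OE from WT and that between the OE lines were called under each of the 13 alternatives run. Root markers also moved between the lines at HS-5. Of the 2 tested of 4, 1 was higher in Ah2880 OE than in WT (median log2 fold change 3.25), as at HS-1, 1 was lower in AhHAB4-PAI-1 OE than in WT (-0.92), and both were lower in AhHAB4-PAI-1 OE than in Ah2880 OE (-4.17). The other 2, EXPA7 and COBL9, had at most 2 counts in any of 28 libraries, and the part of these markers in the result was not tested.

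At HS-1 no pair of lines differed in SGR1 by the test, with 51.7 and 49.6 CPM in AhHAB4-PAI-1 OE, 61.8 and 49.4 CPM in Ah2880 OE and 56.6 and 58.4 CPM in WT. By HS-5, SGR1 had fallen in Ah2880 OE (log2 fold change -1.62, SE 0.17, adjusted p = 1.24e-11) and in WT (-0.67, SE 0.14, adjusted p = 5.55e-05), while the step in AhHAB4-PAI-1 OE missed the threshold (0.35, SE 0.18, adjusted p = 0.142). The step itself differed from that in WT by 1.03 in AhHAB4-PAI-1 OE (SE 0.23, adjusted p = 0.001) and by -0.95 in Ah2880 OE (SE 0.22, adjusted p = 0.00249). The first of these was lost without AhHAB4-PAI-1 OE HS-1 replicate 2 (adjusted p = 0.0321) or HS-5 replicate 1 (0.0115) and when thinned (0.63, 0.444), and the other without Ah2880 OE HS-1 replicate 1 (0.0365), Ah2880 OE HS-5 replicate 1 (0.0268), WT HS-1 replicate 1 (0.0125), WT HS-1 replicate 2 (0.0103) or WT HS-5 replicate 2 (0.0141). With library totals alone, SGR1 in WT differed between HS-5 and HS-1 by -0.08, and when thinned by -0.14 (adjusted p = 0.775), neither called, and in Ah2880 OE the fall was called under every alternative.

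The fall of SGR1 came later in AhHAB4-PAI-1 OE. At HS-11 it had dropped to 28.99 and 27.39 CPM in that line, below its HS-5 level (log2 fold change -1.19, SE 0.16, adjusted p = 1.94e-08) and to 17.4 and 13.7 CPM in WT (-1.25, SE 0.23, adjusted p = 5.15e-06), whereas Ah2880 OE, already low, had 12.6 and 15.6 CPM (-0.36, SE 0.24, adjusted p = 0.204). At HS-11 AhHAB4-PAI-1 OE was again above WT (0.89, SE 0.23, adjusted p = 0.000802) and above Ah2880 OE (1.03, SE 0.22, adjusted p = 6.66e-05). These calls were lost without 1 library each, WT HS-11 replicate 2 for the first (0.71, adjusted p = 0.0719) and Ah2880 OE HS-11 replicate 1 for the other (0.87, adjusted p = 0.0169). Relative to the median of all genes, the difference from WT was 0.59.

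At R-1 SGR1 had 32.3 and 43.3 CPM in AhHAB4-PAI-1 OE, 55.1 and 49.7 CPM in Ah2880 OE, and 41.3 and 38.4 CPM in WT. The difference at R-1 was 0.39 in Ah2880 OE over WT (adjusted p = 0.0672) and -0.39 in AhHAB4-PAI-1 OE over Ah2880 OE (adjusted p = 0.0707), and neither was called. The first was called with only the libraries compared (0.59, adjusted p = 0.00535), thinned (0.76, 0.00986) and without the WT R-3 libraries (0.56, 0.00679), and the other thinned (-0.81, 0.00555) and without the WT R-3 libraries (-0.59, 0.00575). At R-3 the OE lines stood at 47.1 and 45.7 CPM and at 46.5 and 48.4 CPM. The rise over HS-11 was 1.91 in Ah2880 OE (SE 0.24, adjusted p = 5.70e-10), 1.39 in WT (SE 0.23, adjusted p = 4.51e-07) and 0.49 in AhHAB4-PAI-1 OE (SE 0.15, adjusted p = 0.00432) on the log2 scale. The rise in AhHAB4-PAI-1 OE was smaller than that in WT by 0.90 (log2 fold change -0.90, SE 0.28, adjusted p = 0.0055), which was lost without AhHAB4-PAI-1 OE HS-11 replicate 1 (adjusted p = 0.0167), AhHAB4-PAI-1 OE R-1 replicate 1 (0.018), WT HS-11 replicate 2 (-0.71, 0.112) or WT R-1 replicate 1 (0.015). The rise in AhHAB4-PAI-1 OE itself was lost without HS-11 replicate 1 (0.53, adjusted p = 0.0166), HS-11 replicate 2 (0.45, 0.0361) or R-1 replicate 2 (0.20, 0.513), and was 0.05 when thinned (0.914).

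SGR2 was low in heated leaves and higher in recovery in all 3 lines. During heat it had 0 to 4.47 CPM, from 0 to 20 counts in a library, and in 5 treatments (HS-1 and HS-5 of AhHAB4-PAI-1 OE, HS-11 of Ah2880 OE, HS-1 and HS-11 of WT) both libraries were at or under the floor of 3 counts. At R-1 it reached 13.4 and 16.0 CPM in AhHAB4-PAI-1 OE, 22.5 and 22.6 CPM in Ah2880 OE and 13.0 and 16.9 CPM in WT. At HS-11 the same lines had 3.18 and 2.76 CPM, 0.547 and 1.56 CPM (1 and 2 counts), and 0 CPM in both WT libraries. Every R-1 library thus lay above every heat library. Since SGR2 passed the filter through its recovery libraries, R-1 had to exceed heat, and the ratios are given as a description with no test. R-1 over HS-11 was 5.05-fold in AhHAB4-PAI-1 OE, 23.4-fold in Ah2880 OE (95% counting interval 7.59 to 117.5, from 51 and 3 counts) and at least 5.64-fold in WT, where HS-11 was set at 3 counts per library.

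At R-3 SGR2 was lower in AhHAB4-PAI-1 OE than in Ah2880 OE, with 11.8 and 14.4 CPM in AhHAB4-PAI-1 OE against 32.8 and 29.8 CPM in Ah2880 OE (log2 fold change -1.28, SE 0.23, adjusted p = 3.06e-06), a call that held under every alternative. At HS-11 AhHAB4-PAI-1 OE had 19 and 14 SGR2 counts and WT had 0 in both libraries, at least 1.12-fold higher (adjusted p = 0.00171). That call was lost without WT HS-11 replicate 1 (adjusted p = 0.0134) or replicate 2 (0.0524). In WT, SGR2 was also higher at HS-5 than at HS-1 (2.60 and 4.47 CPM, against 0.976 and 0.569 CPM; ratio 4.59, 95% counting interval 1.78 to 15.1, adjusted p = 0.00171) and then lower at HS-11, by at least 1.33-fold (adjusted p = 0.000895). The first was lost without WT HS-1 replicate 2 (adjusted p = 0.047) or WT HS-5 replicate 2 (0.0423) and the second without WT HS-11 replicate 2 (0.0386).

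PPH, the esterase that removes phytol from pheophytin a, had its maximum at HS-5 in AhHAB4-PAI-1 OE and at HS-11 in WT. AhHAB4-PAI-1 OE had 59.0 and 82.5, 136 and 123, 108 and 112, 102 and 113, and 112 and 106 CPM from HS-1 to R-3. WT had 91.5 and 85.1, 90.1 and 90.5, 160 and 170, and 98.4 and 96.5 CPM from HS-1 to R-1. In Ah2880 OE it lay between 81.7 and 136 CPM over 10 libraries, and PPH was called at none of its steps. AhHAB4-PAI-1 OE exceeded WT at HS-5 (log2 fold change 0.52, SE 0.13, adjusted p = 0.00194) and fell below it at HS-11 (-0.59, SE 0.13, adjusted p = 9.60e-05), where Ah2880 OE, with 136 and 98.8 CPM, missed the threshold (-0.47, SE 0.14, adjusted p = 0.0144) but was called with DESeq2 (-0.50, adjusted p = 0.00165), with its size factors (0.00656), thinned (-0.71, 0.00727), without the WT R-3 libraries (0.0092) and without Ah2880 OE HS-11 replicate 1 (-0.75, 0.00317).

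The timing of PPH differed between AhHAB4-PAI-1 OE and WT in all 3 steps that were compared. The step from HS-1 to HS-5 was 0.81 in AhHAB4-PAI-1 OE (SE 0.16, adjusted p = 5.40e-05) and 0.03 in WT (SE 0.13), a difference of 0.78 (SE 0.20, adjusted p = 0.00561). The step from HS-5 to HS-11 was -0.23 in AhHAB4-PAI-1 OE (SE 0.13, adjusted p = 0.171) and 0.87 in WT (SE 0.13, adjusted p = 1.18e-07), a difference of -1.11 (SE 0.18, adjusted p = 1.02e-06), and that from HS-11 to R-1 was -0.02 in AhHAB4-PAI-1 OE (SE 0.12, adjusted p = 0.90) and -0.76 in WT (SE 0.13, adjusted p = 1.65e-06), a difference of 0.74 (SE 0.18, adjusted p = 0.000462). The HS-11 results for PPH depended on the scale. With library totals alone, AhHAB4-PAI-1 OE stood 0.14 above WT at HS-11 and PPH was 0.11 higher at R-1 than at HS-11 in WT, neither called, and the differences of steps were -0.18 at HS-11 and -0.10 at R-1. That scale put the median of all genes in AhHAB4-PAI-1 OE over WT at HS-11 at 1.03, where TMM put it at 0.30. Relative to the median of all genes, PPH lay 0.89 lower in AhHAB4-PAI-1 OE than in WT at HS-11. The call at HS-11 was lost without WT HS-11 replicate 2 (adjusted p = 0.0105), that at HS-5 without AhHAB4-PAI-1 OE replicate 1 (0.047), WT replicate 1 (0.0217) or WT replicate 2 (0.0174), and the first difference of steps without any 1 of 7 libraries (all of the 8 except AhHAB4-PAI-1 OE HS-1 replicate 2; adjusted p 0.0121 to 0.0662).

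PAO, the ring-opening oxygenase, had its lowest mean at HS-11 and its highest at R-1 in every line. AhHAB4-PAI-1 OE had 164 and 170, 193 and 205, 166 and 150, 294 and 252, and 190 and 204 CPM from HS-1 to R-3. Ah2880 OE had 177 and 170, 168 and 157, 59.6 and 70.0, 279 and 256, and 268 and 236 CPM, and WT 155 and 149, 139 and 147, 120 and 85.7, and 263 and 257 CPM up to R-1. AhHAB4-PAI-1 OE was above WT at HS-11 (log2 fold change 0.66, SE 0.14, adjusted p = 3.84e-05), Ah2880 OE was below WT (-0.64, SE 0.16, adjusted p = 0.00349), and the OE lines differed 2.47-fold (adjusted p = 1.41e-11). Relative to the median of all genes the first was 0.36 and the second -0.67. At R-1 the same 3 comparisons gave 0.06 (SE 0.11), 0.04 (SE 0.12) and 0.02 (SE 0.12).

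Between HS-11 and R-1 PAO rose by 2.05 on the log2 scale in Ah2880 OE (SE 0.15, adjusted p = 4.93e-18), by 1.37 in WT (SE 0.13, adjusted p = 5.67e-13) and by 0.77 in AhHAB4-PAI-1 OE (SE 0.11, adjusted p = 7.47e-08), and these rises were called under every alternative, as was the difference between the OE lines at HS-11. The step was 0.68 larger in Ah2880 OE than in WT (SE 0.20, adjusted p = 0.00824) and 0.60 smaller in AhHAB4-PAI-1 OE than in WT (log2 fold change -0.60, SE 0.18, adjusted p = 0.00355, or -0.31 relative to the median of all genes). Before it came a fall from HS-5 to HS-11 of 1.34 in Ah2880 OE (log2 fold change -1.34, SE 0.14, adjusted p = 1.04e-11), which was larger than that in WT (-0.51, SE 0.14, adjusted p = 0.00126, or -0.19 relative to the median) by 0.83 (-0.83, SE 0.20, adjusted p = 0.00154). In AhHAB4-PAI-1 OE that step was -0.33 and missed the threshold (SE 0.12, adjusted p = 0.0336). At HS-5 PAO was higher in AhHAB4-PAI-1 OE than in WT (0.47, SE 0.12, adjusted p = 0.00222), and after R-1 it fell again in AhHAB4-PAI-1 OE (-0.46, SE 0.11, adjusted p = 0.00145), to below Ah2880 OE at R-3 (-0.35, SE 0.12, adjusted p = 0.00958).

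The smaller PAO differences rested on single libraries. At HS-11 the call of AhHAB4-PAI-1 OE over WT was lost without WT replicate 2 (0.42, adjusted p = 0.0399), and that of Ah2880 OE over WT without Ah2880 OE replicate 1 (-0.52, 0.107) or WT replicate 1 (-0.41, 0.172). Those at HS-5 and at R-3 were lost without any 1 of their 4 libraries (adjusted p 0.0106 to 0.0474 and 0.0127 to 0.129), that of AhHAB4-PAI-1 OE between R-3 and R-1 without replicate 1 of either (0.0333 and 0.0368), and that of WT between HS-11 and HS-5 without WT HS-11 replicate 2 (-0.27, 0.205) or WT HS-5 replicate 2 (0.013). Of the differences of steps, that at HS-11 in Ah2880 OE was lost without 3 libraries (Ah2880 OE HS-11 replicate 1, 0.0325; WT HS-11 replicate 1, 0.0522; WT HS-5 replicate 1, 0.0105), that at R-1 in AhHAB4-PAI-1 OE without 4 (its HS-11 replicate 1, 0.0237; its R-1 replicate 2, 0.0311; WT HS-11 replicate 2, -0.36, 0.152; WT R-1 replicate 1, 0.0103), and that at R-1 in Ah2880 OE without any of the 8 but WT HS-11 replicate 2 (0.0106 to 0.141).

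RCCR, which reduces the red product of PAO, set the OE lines apart in recovery. During heat it varied little, between 97.5 and 134 CPM in AhHAB4-PAI-1 OE, 98.5 and 130 CPM in Ah2880 OE and 97.3 and 121 CPM in WT over HS-1 to HS-11, and no step or line comparison of RCCR within the heat stages was called. With library totals alone RCCR was higher in AhHAB4-PAI-1 OE than in WT at HS-11 (0.74) and was called between HS-1 and HS-5 in all lines. At R-1 it had 95.4 and 84.4 CPM in AhHAB4-PAI-1 OE, 57.4 and 38.0 CPM in Ah2880 OE, and 70.9 and 73.3 CPM in WT. At R-3 the gap between the means was wider, with 118 and 128 CPM in AhHAB4-PAI-1 OE against 35.8 and 30.7 CPM in Ah2880 OE. The change of the gap from R-1 to R-3 was not tested. The OE lines differed 3.74-fold at R-3 (log2 fold change 1.90, SE 0.17, adjusted p = 1.48e-14), under every alternative, and 1.92-fold at R-1 (0.94, SE 0.18, adjusted p = 2.64e-05), a call that was lost without Ah2880 OE R-1 replicate 2 (0.64, adjusted p = 0.0352).

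The fall of RCCR in Ah2880 OE between HS-11 and R-1 was called under every alternative (log2 fold change -1.19, SE 0.19, adjusted p = 2.26e-07). In WT the same step gave -0.44 (SE 0.16, adjusted p = 0.0112) and in AhHAB4-PAI-1 OE -0.15 (SE 0.14, adjusted p = 0.332), and the difference of the steps of Ah2880 OE and WT missed the threshold (-0.75, SE 0.24, adjusted p = 0.0168). With library totals alone the step in WT was 0.43 and called. Ah2880 OE was below WT at R-1 (-0.65, SE 0.18, adjusted p = 0.00326, or -0.37 relative to the median of all genes, -0.27), a call that was lost without Ah2880 OE R-1 replicate 2 (-0.34, adjusted p = 0.308), WT R-1 replicate 2 (-0.62, 0.0175) or the WT R-3 libraries (-0.47, 0.0215), and when thinned (-0.21, 0.507). AhHAB4-PAI-1 OE rose between R-1 and R-3 (0.47, SE 0.14, adjusted p = 0.00671), a call lost without R-1 replicate 2 (0.179), R-3 replicate 1 (0.0136), R-3 replicate 2 (0.0463) or the WT R-3 libraries (0.0339). At R-3 Ah2880 OE had the higher RNA level of PAO and the lower one of RCCR of the OE lines. The PAO call was lost whichever of its libraries was left out, and PAO was not called between the OE lines at R-1.

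**Figure D3:**
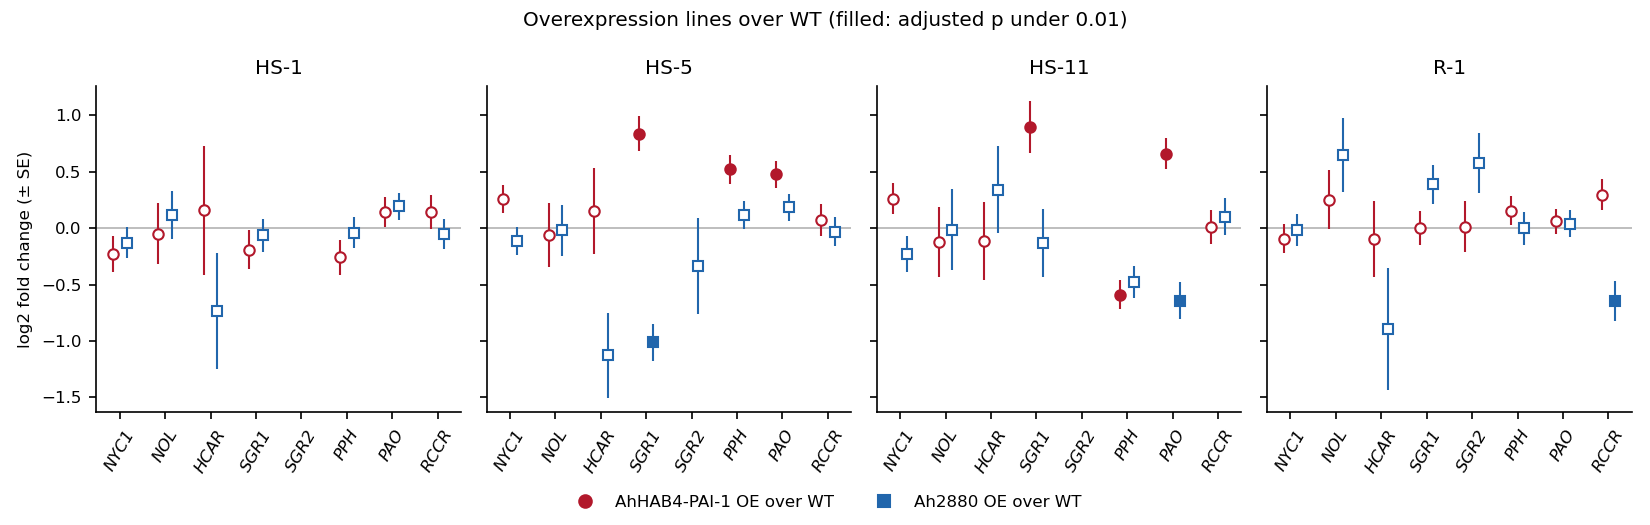
Log2 fold change with its SE (vertical axis) of each gene in AhHAB4-PAI-1 OE over WT (circles) and Ah2880 OE over WT (squares) at HS-1, HS-5, HS-11 and R-1, filled where the adjusted p was under 0.01; genes at or under 3 counts in both libraries of a group are not drawn. SGR1 at HS-5 (0.84 and -1.01) and PAO at HS-11 (0.66 and -0.64) lay on opposite sides of WT in the OE lines.

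Counted over the genes, AhHAB4-PAI-1 OE differed from WT in 0 of 8 after 1 h of heat (13.5% of all genes tested were called), in 3 by HS-5 (17.3%), in 4 by HS-11 (53.1%) and in 0 by R-1 (7.11%). Ah2880 OE differed from WT in 0 at HS-1 (4.49%), and in 1 each at HS-5 (22.0%), HS-11 (8.86%) and R-1 (29.1%). Between the OE lines 0 of 8 were called after 1 h of heat (17.1%), 1 each at HS-5 (26.5%) and R-1 (32.5%), and 3 each at HS-11 (47.5%) and R-3 (43.5%). At HS-5 the share among the members in AhHAB4-PAI-1 OE was above the background by few genes, and each of the 3 calls was lost under at least 1 alternative. In the other comparisons with calls the share was near or below the background. Where 0 were called, the members whose unadjusted p was below 0.05 numbered 0, 0 and 1 in the 3 comparisons of HS-1 and 1 in AhHAB4-PAI-1 OE over WT for R-1, and DESeq2 also called 0 in each.

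At R-3 the comparisons with WT turned on the 0 to 8 counts of the WT R-3 libraries. PAO (3 and 3 counts in WT) was higher in AhHAB4-PAI-1 OE (ratio 5.39, 95% counting interval 2.47 to 14.7, adjusted p = 3.85e-06) and in Ah2880 OE (6.87, 3.14 to 18.8, adjusted p = 3.55e-07), and RCCR (3 and 0 counts in WT) was higher in AhHAB4-PAI-1 OE (6.72, 2.29 to 32.6, adjusted p = 0.000155). These were 2 and 1 of 8 genes, beside 16.2% and 5.22% of all genes, where the median of all genes was 1.51 and 1.03. PAO was also the 1 member called between R-3 and R-1 in WT (lower at R-3, ratio 0.139, 0.0509 to 0.303, beside 11.9% of all genes). The median log2 fold change of all genes for that step was -1.39. Without WT R-3 replicate 2 the call on RCCR was lost (adjusted p = 0.0657).

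Between adjacent stages, 2 of 8 members changed from HS-1 to HS-5 in AhHAB4-PAI-1 OE (22.1% of all genes were called), 3 in Ah2880 OE (33.3%) and 4 in WT (38.8%). From HS-5 to HS-11 the counts were 2 (19.7%), 3 (45.5%) and 5 (49.5%), and from HS-11 to R-1 they were 3 (48.9%), 5 (51.6%) and 4 (55.5%). From R-1 to R-3, 3 were called in AhHAB4-PAI-1 OE (17.6%) and 0 in Ah2880 OE (0.0%), where 1 had an unadjusted p under 0.05 and DESeq2 called 0. NYC1 was called upward in all 3 lines from HS-1 to HS-5 and downward in all 3 from HS-5 to HS-11, and SGR1 and PAO were called upward in all 3 from HS-11 to R-1. SGR2 stands among the 3, 5 and 4 of that step, which its passage of the filter through the recovery libraries had fixed, and without it they are 2, 4 and 3. The difference of a step from that in WT was called for 2 members from HS-1 to HS-5 in AhHAB4-PAI-1 OE (7.5% of all genes), 2 from HS-5 to HS-11 (47.5%) and 4 from HS-11 to R-1 (44.1%), and for 1 member at each of these steps in Ah2880 OE (5.21%, 13.6% and 18.3%). For SGR2, which is among the members called at the last 2 of these steps in AhHAB4-PAI-1 OE, no size is given because WT HS-11 was at 0, and its call at R-1 was lost without WT HS-11 replicate 1 (adjusted p = 0.0181) or replicate 2 (0.0613). All comparisons with WT share its libraries.

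**Figure D4:**
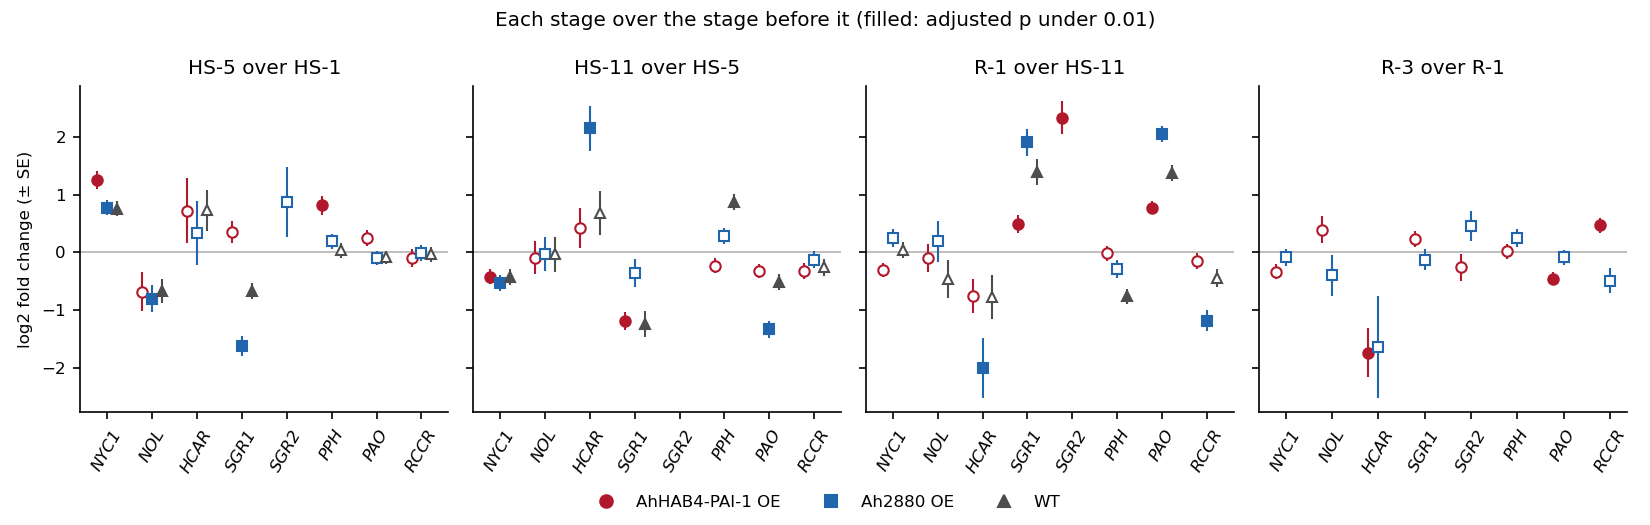
Log2 fold change with its SE (vertical axis) of each gene between adjacent stages in AhHAB4-PAI-1 OE (circles), Ah2880 OE (squares) and WT (triangles), filled where the adjusted p was under 0.01; genes at or under 3 counts in both libraries of a group, and WT R-3, are not drawn. PAO was lower at HS-11 than at HS-5 in Ah2880 OE (-1.34) and higher at R-1 than at HS-11 in all lines (0.77, 2.05 and 1.37).

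Other genes of chlorophyll catabolism did not all follow the members. The list held 15 such genes, among them the chlorophyllases, export proteins and the enzymes that modify the colourless products. At HS-1, 0 were higher and 2 lower in AhHAB4-PAI-1 OE than in WT (6.78% and 6.75% of all genes). In Ah2880 OE 1 was higher and 0 lower (2.98% and 1.51%). At HS-5, 9 were higher and 0 lower in AhHAB4-PAI-1 OE than in WT (8.64% and 8.63% of all genes were called higher and lower), led by FTSH6, a plastid protease (84.6 CPM against 12.2 CPM, log2 fold change 2.78, SE 0.18), and CLH2, a chlorophyllase (13.5 against 5.45 CPM, 1.31, SE 0.34). In Ah2880 OE at HS-5 they were 1 higher and 1 lower (12.1% and 9.93%): CLH1, the other chlorophyllase, was higher (117 against 46.6 CPM, 1.32, SE 0.13) and FTSH6 lower (6.07 against 12.2 CPM, -1.03, SE 0.26). FTSH6 thus lay on opposite sides of WT in the OE lines at HS-5, as SGR1 did. At HS-11, 5 were higher and 3 lower in AhHAB4-PAI-1 OE (29.5% and 23.6%), with CYP89A9, which acts on the colourless products, at 245 CPM against 15.2 CPM in WT (3.94, SE 0.19) and the vacuolar exporter ABCC3 at 27.8 against 193 CPM (-2.79, SE 0.16). In Ah2880 OE 1 was higher and 2 lower at HS-11 (3.88% and 4.97%). At R-1, 2 were higher and 1 lower in AhHAB4-PAI-1 OE (4.66% and 2.45%) and 3 higher and 2 lower in Ah2880 OE (11.1% and 18.0%), with CLH1 at 168 against 49.4 CPM in the first (1.78, SE 0.13) and at 3.32 against 49.4 CPM in the other (-3.78, SE 0.32).

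The list of regulators of chlorophyll breakdown held 19 genes, mostly NAC, ABA-related and light-signalling factors that act on SGR1, NYC1 or PAO. At HS-1, 0 were higher and 4 lower in AhHAB4-PAI-1 OE than in WT (6.78% and 6.75% of all genes). In Ah2880 OE 0 and 0 were called at HS-1 (2.98% and 1.51%). In AhHAB4-PAI-1 OE over WT, 0 were higher and 11 lower at HS-5 (8.64% and 8.63% of all genes). The median log2 fold change there was -0.76 against -0.05 for all genes, the 3 member calls being upward. At HS-11 12 were higher and 0 lower (29.5% and 23.6% of all genes, median 1.74 against 0.30). NAC072 was there at 175 CPM against 3.89 CPM in WT (5.51, SE 0.26). NAP, a NAC factor of leaf senescence, was at 38.9 CPM against 0 in both WT libraries, at least 14.6-fold higher. In WT at HS-5, NAC072 had 188 CPM and NAP 29.5 CPM. In Ah2880 OE over WT the counts were 1 higher and 4 lower at HS-5 (12.1% and 9.93%) and 3 and 1 at HS-11 (3.88% and 4.97%). They were 9 and 3 at R-1 (11.1% and 18.0%), where NAC055 had 60.0 CPM against 4.59 CPM (3.76, SE 0.26). In AhHAB4-PAI-1 OE at R-1 1 was higher and 3 lower (4.66% and 2.45%).

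Chlorophyll synthesis genes and the antenna of photosystem II are the other side of the leaf's chlorophyll. Of 27 synthesis genes, AhHAB4-PAI-1 OE had 11 higher and 1 lower than WT at HS-1 (6.78% and 6.75% of all genes were called higher and lower). It had 6 and 1 at HS-5 (8.64% and 8.63%), 4 and 16 at HS-11 (29.5% and 23.6%, median -0.74 against 0.30 for all genes), and 1 and 2 at R-1 (4.66% and 2.45%). Ah2880 OE had 0 and 0 called at HS-1 (2.98% and 1.51%), 0 and 6 at HS-5 (12.1% and 9.93%), and 3 and 2 at HS-11 (3.88% and 4.97%). At R-1 it had 2 and 17 (11.1% and 18.0%, median -0.61 against -0.27), with DVR, the divinyl reductase, at 13.5 CPM against 84.2 CPM in WT (-2.61, SE 0.23). Of 14 antenna genes, 0, 2, 8 and 6 were higher and 0, 2, 2 and 0 lower in AhHAB4-PAI-1 OE at HS-1, HS-5, HS-11 and R-1. In Ah2880 OE 0, 1, 0 and 2 were higher and 0, 0, 2 and 9 lower, beside the same shares of all genes. At R-3, 24 synthesis genes and all 14 antenna genes were higher in AhHAB4-PAI-1 OE than in Ah2880 OE (29.3% of all genes were called higher and 14.2% lower), with LHCB2.3 at 1450 CPM against 11.6 CPM, in the same libraries in which SGR2 and PAO were lower and RCCR higher. Of 8 markers of leaf senescence (7 tested), 1 was higher and 5 lower there, with SAG21 at 108 CPM against 605 CPM (-2.48, SE 0.13). Against WT the senescence markers went in mixed directions. In AhHAB4-PAI-1 OE 1 was higher and 2 lower at HS-1 and at HS-11, and 1 and 1 at HS-5 and at R-1. In Ah2880 OE 0 and 0 were called at HS-1, 3 and 1 at HS-5, 0 and 3 at HS-11, and 3 and 0 at R-1. All 5 leaf markers were also higher in AhHAB4-PAI-1 OE than in Ah2880 OE at R-3 (median log2 fold change 1.46). Against WT, AhHAB4-PAI-1 OE had 1 of the 5 higher at HS-1 and 4 higher at HS-5 (median 0.63). It had 1 higher and 3 lower at HS-11, and 4 higher at R-1. Ah2880 OE had 0 leaf markers called at HS-1, 1 higher at HS-5, 1 lower at HS-11, and 1 higher and 1 lower at R-1. The shares of all genes for these comparisons are those given above. The part of these lists and markers in the differences of the members was not tested.

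Over the 14 treatments the members did not share 1 pattern. The highest correlations of mean log2 CPM between members were those of PAO with SGR2 (r = 0.713) and with SGR1 (r = 0.692), and the lowest were those of SGR2 with RCCR (r = -0.728) and of NYC1 with NOL (r = -0.603), all over the same libraries and depths. SGR2 passed the filter only through its recovery libraries and was at or under the floor in 5 of the 14 treatments. Its low levels in heat and higher ones in recovery were thus fixed, and every r given for it carries that contrast. Among 15825 genes with a mean of at least 5 CPM, the patterns most like that of SGR1 were those of BBX19 (r = 0.948) and FTSH9 (r = 0.94), of SGR2 A/N-InvB and AT3G51440 (r = 0.98 for both), of NYC1 PGRL1B (r = 0.881) and AT4G08510 (r = 0.877), and of NOL SPD1 (r = 0.896) and LON2 (r = 0.891). For PPH they were AT1G17780 (r = 0.882) and AT4G16900 (r = 0.86), for PAO SFP1 (r = 0.951) and BEH3 (r = 0.946), for RCCR AT1G05140 and AFO (r = 0.979 for both), and for HCAR AT5G54930 (r = 0.887) and BBX8 (r = 0.886).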

How the data were processed

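RNA of pooled leaves was captured with oligo(dT) and sequenced in 30 libraries. The authors mapped reads to TAIR10 with Bowtie2, removed duplicates with Picard and assigned reads to genes with Subread, and the values they deposited are raw counts without normalization. The release of the annotation and the strand setting are not given in the sources used here, and the kit does not mark strand. Duplicate removal can lower the counts of highly expressed genes.

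From these counts, edgeR 4.0.16 in R 4.3.3 (filterByExpr, TMM factors, quasi-likelihood test, 1 mean for each of 15 treatments over 30 libraries) gave 33 contrasts. P-values were adjusted over all 19761 genes by the Benjamini-Hochberg method and called under 0.01. The biological coefficient of variation was 0.0771. Replicates are pools of leaves, so p-values measure the spread between pools, and counting intervals cover counting error only. Entries with a suffixed name held 0.283% of counts.

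The genes, lists and tests were chosen with earlier results of these data known. Named genes were all 8 members, per list and comparison some of the 2 called genes with the largest change, and the 2 genes most like each member. The levels of NAP and NAC072 in WT at HS-5 and the leaf markers at R-3 were added after their values were seen. Promoter windows were read from the TAIR10.1 genome and RefSeq annotation. Alternatives were DESeq2 1.42.0, its size factors, library totals alone, no filter, only the libraries compared, thinning to 1 depth, edgeR's legacy form, a replicate block, and leaving out the WT R-3 libraries or each library in turn.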

Additional observations from a re-analysis of the deposited data

Results flagged for a closer look

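Beside 2 results for SGR2 in AhHAB4-PAI-1 OE, which rest on WT HS-11 at 0 counts and are given no size, in 9 results the change of a gene between adjacent stages differed between an OE line and WT by a test of the difference itself. For SGR1 the step from HS-1 to HS-5 was a fall in WT. On the log2 scale that step differed from WT by 1.03 in AhHAB4-PAI-1 OE, where no change was called. In Ah2880 OE it differed by -0.95, a deeper fall than in WT. The rise of SGR1 from HS-11 to R-1 was smaller in AhHAB4-PAI-1 OE than in WT (-0.90). For PPH the 3 steps in AhHAB4-PAI-1 OE differed from those in WT by 0.78, -1.11 and 0.74. For PAO the step from HS-11 to R-1 differed from that in WT by -0.60 in AhHAB4-PAI-1 OE and by 0.68 in Ah2880 OE, and that from HS-5 to HS-11 by -0.83 in Ah2880 OE.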

How the results depend on the processing

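Of 264 results for the 8 genes, 67 were called, 24 of them under every alternative, and 34 others were called under at least 1 alternative. The replicate block and edgeR's legacy form changed 0 calls: with the replicate block 7 results of AhHAB4-PAI-1 OE against WT up to R-1 were called, as without it. The replicate numbers are not known to mark a shared origin, and same-numbered libraries did not deviate together (r -0.398 to 0.26 over 91 pairs of treatments, 8 over 0.1). Thinning to 1 depth, which leaves fewer counts, lowered the called results of AhHAB4-PAI-1 OE against WT up to R-1 to 3 of 32, against 7. It lowered the steps called to 6 in AhHAB4-PAI-1 OE, 6 in Ah2880 OE and 8 in WT, against 10, 11 and 13, and the differences of steps to 2, against 11. At R-3 AhHAB4-PAI-1 OE against WT had 1 call with DESeq2 and 1 with only the libraries compared, against 2. Without the WT R-3 libraries 13 results were called between the OE lines, against 8. Leaving out 1 library in turn gave 3 to 7 calls for AhHAB4-PAI-1 OE against WT up to R-1, with 3 without WT HS-11 replicate 2. It gave 1 to 2 at R-3, with 1 without WT R-3 replicate 2, and 1 to 3 for R-3 against R-1 in WT, with 3 without WT R-3 replicate 1.

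With library totals alone as the scale, 10 results changed sign among those called on that scale or with TMM. PPH gave 0.14 in AhHAB4-PAI-1 OE over WT at HS-11, 0.11 for R-1 over HS-11 in WT and -0.10 for the difference of that step. RCCR gave 0.52 in AhHAB4-PAI-1 OE, 0.44 in Ah2880 OE and 0.57 in WT for HS-5 over HS-1, 0.43 for R-1 over HS-11 in WT, and 0.86 for the difference of the step from HS-5 to HS-11 in AhHAB4-PAI-1 OE. PAO gave 0.36 in Ah2880 OE and 0.51 in WT for HS-5 over HS-1. That scale moved the median of all genes for HS-5 over HS-1 to 0.615 in AhHAB4-PAI-1 OE, 0.49 in Ah2880 OE and 0.59 in WT. Depth limits SGR2, HCAR and NOL, with at most 81 counts in a library.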
